A study of Caenorhabditis elegans with 12 samples.

Results

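The numbered col genes are the C. elegans genes whose symbol is col followed by a number. They encode small collagens, nearly all of them of the cuticle. They were chosen by the pattern of the WormBase symbol and by a minimum of 10 counts in at least 4 of 12 libraries. The count table held 156 such genes among 46748 genes. Of these, 114 met the minimum, and all 114 were among the 14511 genes tested. Of the 114, 76 had 10 counts in all 12 libraries, 32 reached 10 counts in fewer than 4 wild-type libraries, and 1 of them, col-110, reached it in no wild-type library. The minimum thus lets in genes that are low in wild type, and counts over the members describe those that passed it. Members just inside the minimum, with 10 counts in exactly 4 libraries, were col-64 (0 to 13 counts per library), col-83 (0 to 18) and col-41 (0 to 48). Just outside, with 3 such libraries, were col-56 (0 to 20), col-85 (0 to 22) and col-187 (0 to 18). The 42 col genes left out had at most 34 counts in any library, and 5 of them had none.

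The libraries were made from poly(A) RNA of whole worms on day 1 of adulthood, with 4 replicates of each of 3 genotypes. Wild type was strain N2. In crh-1(syb385), strain VDL786, a CRISPR/Cas9 deletion in the intron behind exon 4 of crh-1, the worm CREB gene, removes the circular RNA circ-crh-1. The third genotype, crh-1(n3315), strain MT9973, is labelled as a crh-1 knockout, and the study describes it as a null mutant. The study asked how the transcriptomes of worms lacking the circRNA and worms lacking CREB differ from wild type. The labels name no FUdR, a compound that stops progeny from forming, whereas the study's methods describe its use from the L4 larval stage unless indicated otherwise, so exposure of these worms is not known. Each mutant was represented by 1 strain. All libraries come from whole worms, in which fewer cells of a type and less RNA per cell cannot be told apart.

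The cuticle is a collagen exoskeleton that the epidermis secretes and rebuilds at every molt. Different collagen genes are switched on at different stages and at different points of a molting cycle, so the set in use marks the age of the worm. Collagen chains form trimers, are hydroxylated and trimmed by proteases, and are crosslinked outside the cell. Many named collagens (dpy, sqt, rol, bli) alter body shape when mutated, whereas most numbered col genes are known by sequence alone.

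Total counts per library ranged from 16348586 to 25369267. The targeted gene, crh-1, was at 42.4 ± 4.06 CPM (SD, n = 4) in wild type, 44.8 ± 1.41 CPM in crh-1(syb385) and 50.1 ± 2.41 CPM in crh-1(n3315). Such a count does not resolve a deletion in an intron or in part of a gene, so the libraries carry their labels unchecked, and crh-1(n3315) below means the libraries labelled so. Wild type replicate 3 stood apart from the other wild-type libraries. Its summed level of 6 vitellogenin (yolk protein) genes was 22073 CPM against 35629 to 42040.4 CPM, and that of 3 muscle genes 643 CPM against 1468 to 1769 CPM. Results below are given without this library where it changed a call or a count by more than 1.5 times. It was also the highest wild-type library for 72 of the 114 members. Leaving it out thus lowers wild type for them, and rises called only without it are a description.

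The col genes took a larger share of all counts in both mutants than in wild type. Their share was 1.15, 1.98, 2.61 and 1.55% in the wild-type libraries, 3.53, 3.42, 3.24 and 3.38% in the crh-1(syb385) libraries, and 3.28, 2.82, 2.68 and 3.16% in crh-1(n3315). The means were 1.83 ± 0.62%, 3.39 ± 0.12% and 2.98 ± 0.28% (SD, n = 4 each). Every mutant library lay above every wild-type library, although wild type replicate 3 at 2.61% came close to the lowest mutant library at 2.68%. The share was a matter of few genes. The 38 most abundant members by RPKM (reads scaled to exon length and library size, the scale on which levels of different genes are compared here) held 97.5 to 99.5% of the col counts of a library. The 5 most abundant alone held 38.2 to 46.2%.

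**Figure D1:**
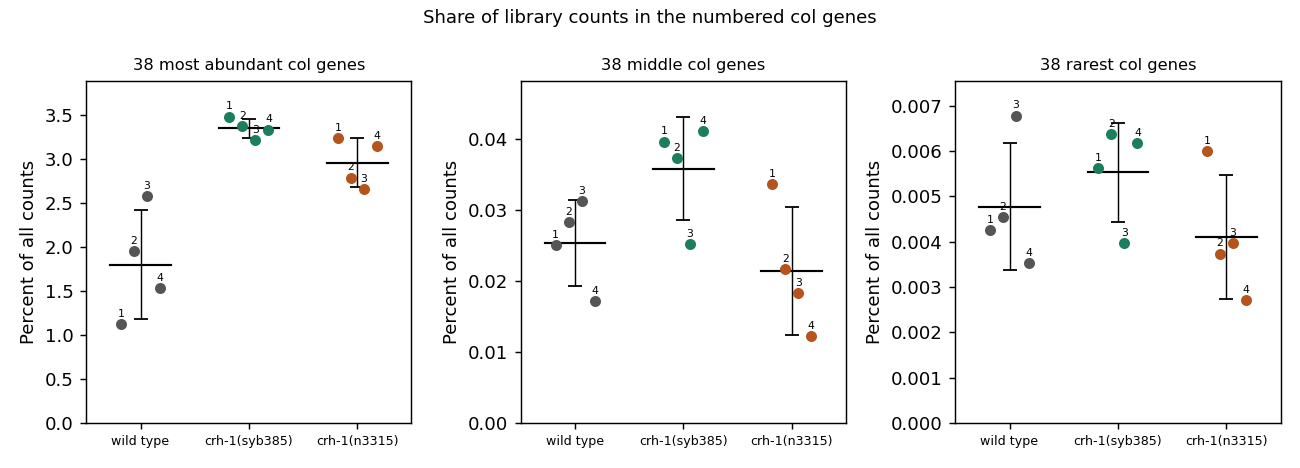
Percent of all counts in a library that fell on the 38 most abundant, 38 middle and 38 rarest col genes by mean RPKM. Points are libraries with their replicate number, lines and bars are the mean and SD of 4 libraries; in the abundant class the 8 mutant libraries lie above the 4 wild-type libraries, whereas in the middle and rare classes the genotypes overlap.

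The wild-type libraries differed more in their col genes than in other genes. The median over members of the SD of log2 CPM was 0.75 in wild type, 0.38 in crh-1(syb385) and 0.61 in crh-1(n3315), beside 0.36, 0.20 and 0.19 over all tested genes. The spread was not random between members. Wild type replicate 3 was the highest of the wild-type libraries for 72 members, and wild type replicate 1 the lowest for 60. In crh-1(syb385), replicate 3 was the lowest for 82 members. In crh-1(n3315), replicate 1 was the highest for 83 members and replicate 4 the lowest for 53, among them 30 of the 38 members of middle abundance. A typical middle member thus ran 4.89-fold from its lowest to its highest wild-type library, 2.04-fold in crh-1(syb385) and 3.72-fold in crh-1(n3315), while an abundant member ran 2.23-fold, 1.25-fold and 1.51-fold (medians over members).

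**Figure D2:**
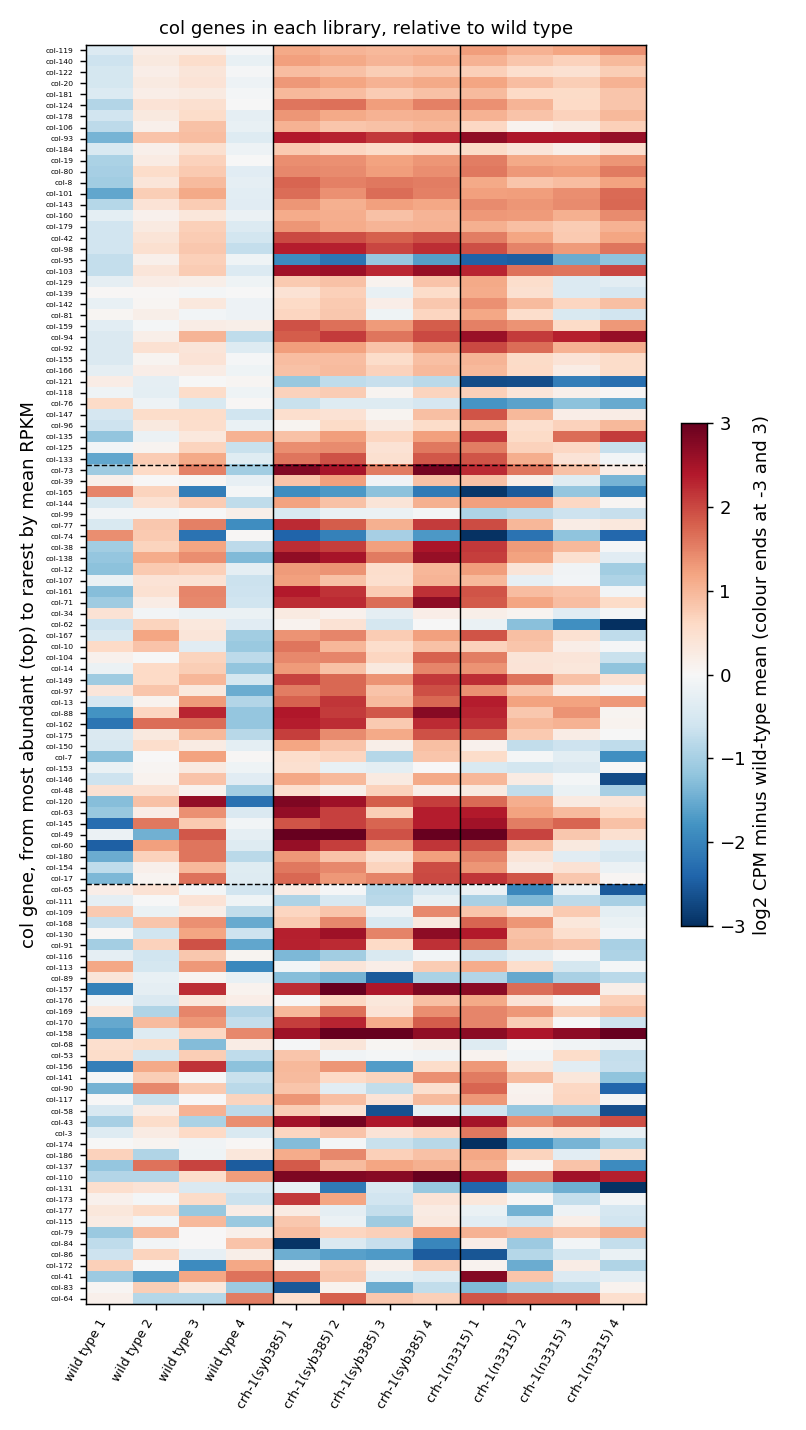
Log2 CPM of each of the 114 col genes in each of the 12 libraries, minus the mean of the 4 wild-type libraries, with genes ordered from the most abundant at the top to the rarest by mean RPKM and dashed lines between the 38 abundant, 38 middle and 38 rare genes. Most rows are red in both mutants; the middle rows are paler in crh-1(n3315) than in crh-1(syb385) except in crh-1(n3315) replicate 1, and a few rows, such as col-95, col-121, col-165 and col-74, are blue in the mutants.

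In crh-1(syb385), 37 of the 114 members were upregulated and 5 downregulated. Calls required a 2-fold difference together with an adjusted p below 0.05 from edgeR's quasi-likelihood test (Benjamini-Hochberg over all tested genes, below the edgeR adjusted p). The same rule called 2.24% of all tested genes as upregulated and 4.48% as downregulated, against 32.5% and 4.39% of the members. The fold change was above 1 for 91 members (79.8%, beside 45.3% of all tested genes). The median log2 fold change was 0.88 over the members and -0.05 over all tested genes. For 40 members all 4 crh-1(syb385) libraries lay above all 4 wild-type libraries, and for 4 members below (35.1% and 3.51%, beside 9.79% and 8.95% of all tested genes). The count of rises depended on single libraries. It was 18 without wild type replicate 1, 20 without wild type replicate 4, 23 without crh-1(syb385) replicate 1 and 51 without wild type replicate 3, beside 1.74, 1.83, 1.76 and 3.52% of all tested genes in the same fits. Wild type replicate 3 was the highest wild-type library for 72 members and replicate 1 the lowest for 60. Fewer rises without replicate 1 and more without replicate 3 thus follow in part from the choice. Of the 37 rises, 14 were called in each of the 12 fits that left out 1 library.

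In crh-1(n3315), 19 members were upregulated and 10 downregulated, which is 16.7% and 8.77% of the members beside 4.17% and 11.2% of all tested genes. The median log2 fold change was 0.58 over the members and -0.04 over all tested genes, and 82 members (71.9%, beside 47.6%) were higher than in wild type. The libraries did not overlap for 25 members that were higher and 8 that were lower, 21.9% and 7.02% of the members, close to and below the 20.5% and 18.2% of all tested genes. Without wild type replicate 3, 40 members were upregulated (35.1%, beside 4.53% of all tested genes). That library was the highest of wild type for 72 members, so more rises without it follow in part from the choice. With each library's trend of level on gene length removed, 32 were upregulated and 8 downregulated, against 19 and 10 (28.1% of the members upregulated, beside 4.52% of all tested genes). Of the 19 rises, 13 were called in each of the 12 fits that left out 1 library. Both mutants were compared with the same 4 wild-type libraries, so a rise in both is not 2 independent observations.

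**Figure D3:**
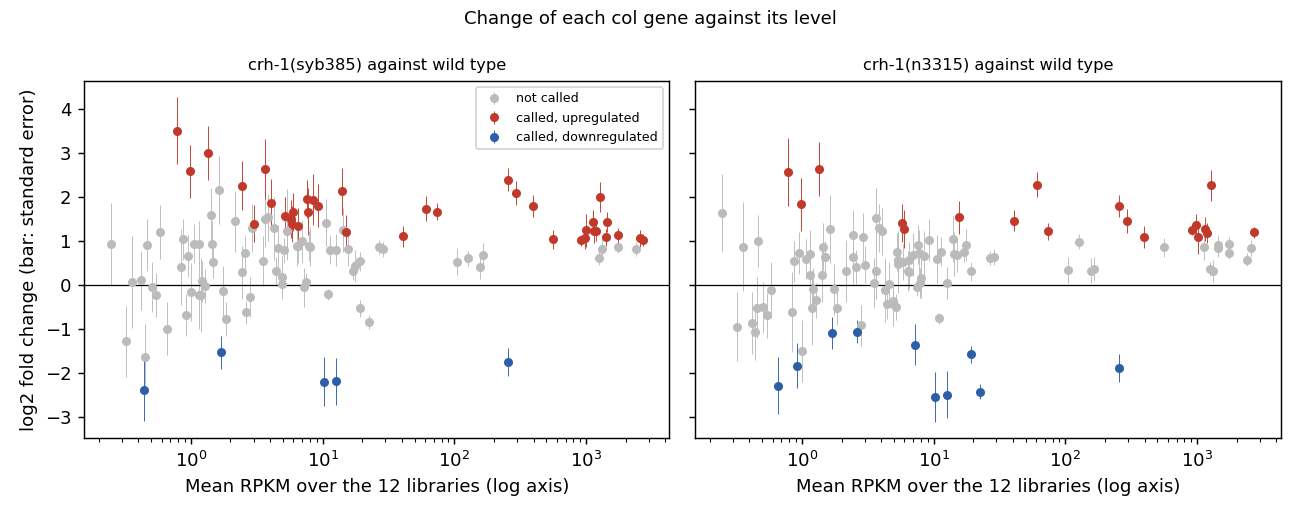
Log2 fold change of each col gene against wild type, with its standard error, plotted against the gene's mean RPKM over the 12 libraries on a log axis, for crh-1(syb385) on the left and crh-1(n3315) on the right. Red points were called upregulated (37 and 19 genes) and blue points downregulated (5 and 10 genes); the most abundant genes lie close together above the zero line in both panels.

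The most abundant cuticle collagens were higher in both mutants. The 5 highest members by mean RPKM were col-119, col-140, col-122, col-20 and col-181, at 2699.8, 2571, 2393, 1762 and 1757 RPKM over the 12 libraries. The level of col-119 (WBGene00000693, chromosome IV, 8978823 to 8979812) was 1116, 1732, 1736 and 1463 CPM in wild type, 3260.1, 3012, 2939.9 and 2991 CPM in crh-1(syb385) and 3525, 3071, 3360.0 and 3868 CPM in crh-1(n3315). No mutant library reached down to the wild-type range. Its log2 fold change was 1.01 (standard error 0.13, edgeR adjusted p = 0.000121) in crh-1(syb385) and 1.19 (standard error 0.13, edgeR adjusted p = 8.08e-06) in crh-1(n3315). The first lies at the 2-fold limit and fell below it without wild type replicate 1 (0.90) and also without replicate 1 of crh-1(syb385) (0.98). For col-140 and col-20, crh-1(syb385) gave log2 fold changes of 1.06 and 1.13 (edgeR adjusted p = 0.00140 and 0.000365), and crh-1(n3315) gave 0.83 and 0.93 (edgeR adjusted p = 0.00230 and 0.000422), where both missed the fold limit. The calls of col-140 and col-20 in crh-1(syb385) were lost without wild type replicate 1 (0.88 and 0.98 on the log2 scale), and that of col-140 also without wild type replicate 4 (0.97). In crh-1(n3315) both genes were called without wild type replicate 3 (1.02 and 1.07), and col-20 also without wild type replicate 2 (1.02). With the length trend removed both were called there as well (1.04 and 1.097). Log2 fold changes of col-122 and col-181 ranged from 0.57 (col-122 in crh-1(n3315)) to 0.86 (col-181 in crh-1(syb385)), with edgeR adjusted p values from 0.000692 to 0.00644. In all 5 genes the wild-type libraries kept the same order, with replicate 1 lowest and replicate 3 highest.

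Larger rises came from genes of somewhat lower level. The level of col-93 (WBGene00000668, chromosome III, 10984555 to 10985608) was 122.2, 581.7, 604.2 and 245.8 CPM in wild type, 1662, 1585, 1392 and 1569.8 CPM in crh-1(syb385) and 2033, 1727, 1712 and 1956 CPM in crh-1(n3315). The groups were far apart, and the wild-type libraries themselves ran over a wide range. The log2 fold change of col-93 was 1.999 (standard error 0.35, edgeR adjusted p = 0.00121) in crh-1(syb385) and 2.26 (standard error 0.35, edgeR adjusted p = 0.000146) in crh-1(n3315). Beside it on the same strand lie col-92 and col-94, and the 3 neighbours moved alike. The level of col-94 was 12.6, 19.4, 35.1 and 10.1 CPM in wild type, 60.6, 74.02, 52.1 and 68.5 CPM in crh-1(syb385) and 104.5, 74.1, 87.3 and 105.7 CPM in crh-1(n3315), with log2 fold changes of 1.73 (standard error 0.29, edgeR adjusted p = 0.000862) and 2.27 (standard error 0.29, edgeR adjusted p = 2.97e-05). Those of col-92, outside the rule for genes described singly and added after its values were seen, were 1.10 and 1.45 (edgeR adjusted p = 0.00505 and 0.000215). The call of col-92 in crh-1(syb385) was lost without wild type replicate 1 (0.97) or wild type replicate 4 (0.99). Neighbouring collagen genes resemble each other in sequence, so reads may have been shared among them.

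Another clear rise was that of col-103 (WBGene00000677, chromosome IV, 762412 to 763678). It was at 51.7, 108.8, 144.4 and 64.5 CPM in wild type, 491.2, 502.1, 411.3 and 521.8 CPM in crh-1(syb385) and 414.2, 265.0, 257.9 and 338.9 CPM in crh-1(n3315). Each crh-1(syb385) library lay above the wild-type ones by a wide margin, and the crh-1(n3315) libraries lay mostly between the other groups. The gene's log2 fold change was 2.38 (standard error 0.26, edgeR adjusted p = 3.45e-05) in crh-1(syb385), 1.79 (standard error 0.26, edgeR adjusted p = 7.84e-05) in crh-1(n3315), and -0.59 (standard error 0.25, edgeR adjusted p = 0.108) between the mutants, so the mutants were not separated for this gene. Over the 37 rises of crh-1(syb385), the log2 fold change lay between 1.01 and 3.502. Over the 19 of crh-1(n3315), it lay between 1.07 and 2.63.

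Of the members with a known stage, the adult cuticle collagen col-19 rose in both mutants. This gene is switched on in the epidermis at the passage from the L4 larva to the adult and is widely used as a marker of the adult epidermis. Its level (WBGene00000608, chromosome X, 421707 to 422776) was 311.9, 716.7, 972.9 and 598.8 CPM in wild type, 1592, 1558, 1387 and 1509.9 CPM in crh-1(syb385) and 1737, 1317, 1303 and 1499.5 CPM in crh-1(n3315). All mutant libraries exceeded all wild-type libraries. For col-19 the log2 fold change was 1.22 (standard error 0.23, edgeR adjusted p = 0.00245) in crh-1(syb385) and 1.17 (standard error 0.23, edgeR adjusted p = 0.000983) in crh-1(n3315), and both missed the 2-fold limit without wild type replicate 1 (0.99 and 0.93). The other adult collagens did not follow it. The level of col-7 was 1.81, 4.43, 10.3 and 4.53 CPM in wild type, 6.40, 6.96, 2.41 and 8.001 CPM in crh-1(syb385) and 6.53, 4.24, 3.54 and 1.17 CPM in crh-1(n3315), with log2 fold changes of 0.18 (standard error 0.50, edgeR adjusted p = 0.853) and -0.44 (standard error 0.51, edgeR adjusted p = 0.518). That of col-62 was 5.29, 13.2, 10.2 and 6.48 CPM in wild type, 8.82, 11.1, 5.66 and 8.14 CPM in crh-1(syb385) and 7.12, 3.42, 2.23 and 0.766 CPM in crh-1(n3315). The log2 fold change of col-62 was -0.06 (standard error 0.45, edgeR adjusted p = 0.950) in crh-1(syb385) and -1.36 (standard error 0.46, edgeR adjusted p = 0.0266) in crh-1(n3315), where its libraries overlapped those of wild type. That fall lost its call without wild type replicate 2, crh-1(n3315) replicate 2 or crh-1(n3315) replicate 3, with edgeR adjusted p values of up to 0.0869, and in the fit of only the 2 genotypes compared. Between the mutants col-62 stood at -1.31 (standard error 0.46, edgeR adjusted p = 0.0614) on the log2 scale, and it was called there without wild type replicate 1, wild type replicate 3 or crh-1(n3315) replicate 1 (down to -1.98). The last of these libraries was the highest of its group for this gene. Between the mutants col-62 was also called by DESeq2 (adjusted p = 0.0190), with no filter on low counts, in the fit of both mutants alone and with a replicate block (-1.47, edgeR adjusted p = 0.0471). On chromosome I, col-7 and col-62 are neighbours on opposite strands. The list of adult collagens is short, so 1 of 3 rose in crh-1(syb385), and 1 rose and 1 fell in crh-1(n3315).

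**Figure D4:**
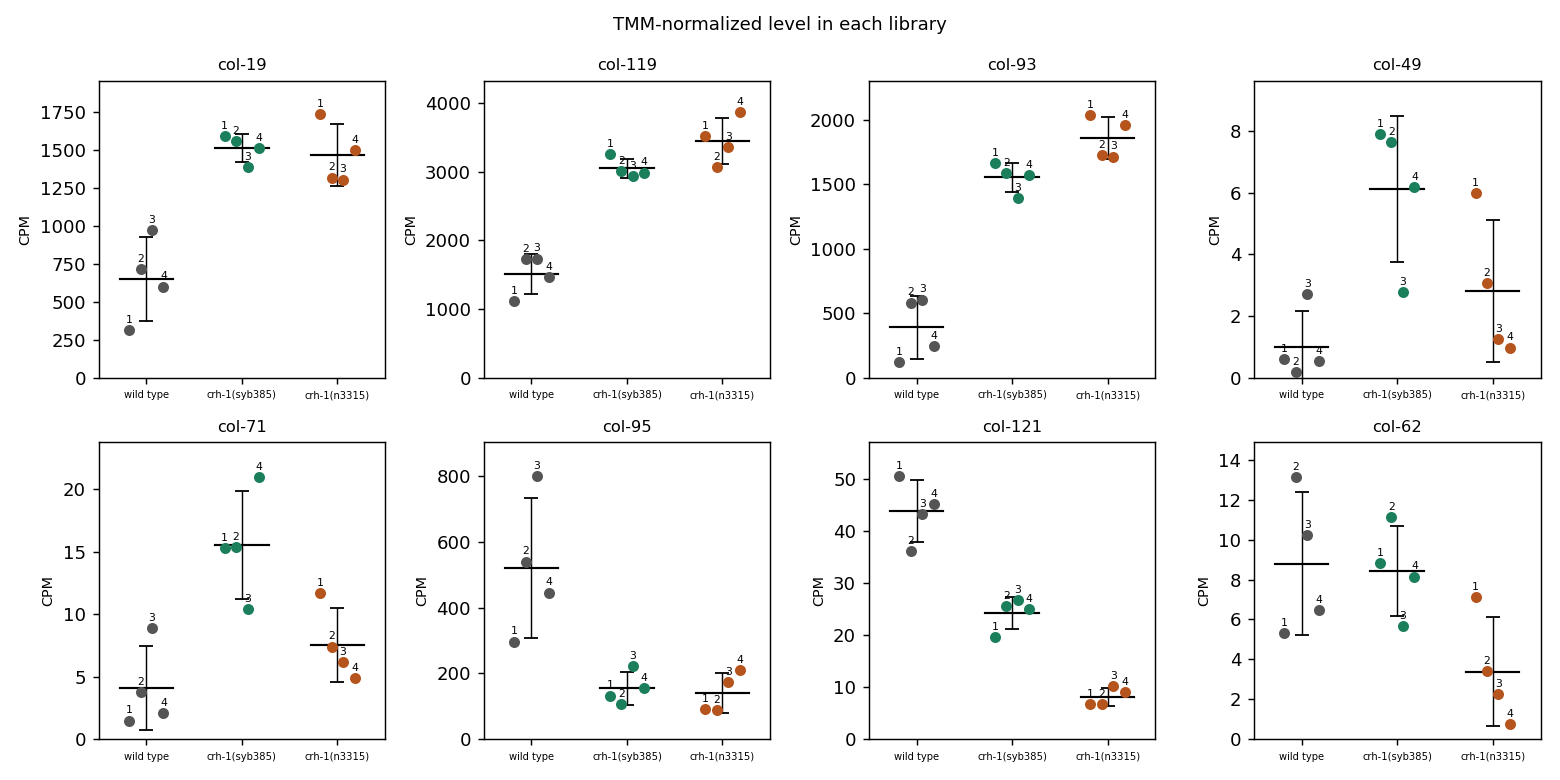
TMM-normalized CPM of 8 col genes in each library, with replicate numbers, the mean (line) and SD (bar) of 4 libraries on axes that start at 0. The abundant genes col-19, col-119 and col-93 are higher in both mutants, the L4 collagens col-49 and col-71 are highest in crh-1(syb385), and col-95 and col-121 are lower in both mutants, col-121 in steps from wild type to crh-1(n3315).

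The L4 collagens col-38, col-49 and col-71, which worms make for the last larval stage and the passage to the adult, were called upregulated in crh-1(syb385). In crh-1(n3315) they were not called, but several alternatives called them there. The level of col-71 (WBGene00000647, chromosome II, 3500073 to 3502449) was 1.47, 3.78, 8.88 and 2.08 CPM in wild type, 15.3, 15.4, 10.4 and 20.99 CPM in crh-1(syb385) and 11.7, 7.41, 6.19 and 4.85 CPM in crh-1(n3315). That of col-49 was 0.588, 0.187, 2.72 and 0.540 CPM in wild type, 7.91, 7.64, 2.78 and 6.18 CPM in crh-1(syb385) and 5.98, 3.06, 1.26 and 0.971 CPM in crh-1(n3315). Wild type replicate 3 was the highest wild-type library for both, and crh-1(n3315) replicate 1 the highest of its group. The level of col-38 was 1.52, 5.22, 7.46 and 1.83 CPM in wild type, 15.4, 14.04, 7.76 and 18.3 CPM in crh-1(syb385) and 14.5, 8.07, 6.42 and 3.17 CPM in crh-1(n3315). In crh-1(syb385) the log2 fold changes were 1.95 (standard error 0.44, edgeR adjusted p = 0.00711) for col-71, 2.63 (standard error 0.68, edgeR adjusted p = 0.0149) for col-49 and 1.80 (standard error 0.49, edgeR adjusted p = 0.0197) for col-38, and for all 3 genes the crh-1(syb385) libraries lay above those of wild type. The call of col-49 was lost without wild type replicate 4 (edgeR adjusted p = 0.0515), and that of col-38 in 3 fits that left out 1 library (adjusted p of up to 0.0632). In wild type col-49 had 12, 4, 50 and 13 counts, so it met the minimum of 10 counts in 4 libraries only with mutant libraries. Its higher level in a mutant thus follows in part from the choice, and its folds and p values are a description.

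In crh-1(n3315) the same 3 L4 collagens were at 0.91, 1.52 and 1.02 on the log2 scale against wild type, with edgeR adjusted p values of 0.106, 0.0817 and 0.104. Without wild type replicate 3 all 3 were called in crh-1(n3315) as well, at 1.63, 2.68 and 1.499 (edgeR adjusted p = 0.00112, 0.00258 and 0.0162). That library was the highest of wild type for all 3 genes, so leaving it out lowers wild type by the choice, and these calls are a description. Without crh-1(n3315) replicate 4, col-49 and col-38 were called in crh-1(n3315), at 1.80 and 1.28. The same 2 genes were called there on all 12 libraries with the length trend removed (1.26 for col-38 and 1.79 for col-49) and with no filter on low counts (1.02 for col-38 and 1.51 for col-49). Directly between the mutants their log2 fold changes were -1.04 (standard error 0.42, edgeR adjusted p = 0.0988), -1.11 (standard error 0.62, edgeR adjusted p = 0.228) and -0.78 (standard error 0.47, edgeR adjusted p = 0.262). The difference between the mutants was not called for any of the 3 genes in this fit. For col-71 it was called without wild type replicate 3 (-1.04, edgeR adjusted p = 0.0114), with no filter on low counts (0.0396) and in the fit of both mutants alone (0.00159), and the latter also called col-49 (0.0436). All 3 were called when wild type replicate 3 and crh-1(n3315) replicate 1 were left out together, with log2 fold changes of -1.34, -1.80 and -1.23 (edgeR adjusted p = 0.00289, 0.00763 and 0.029). The latter library was the highest of its group for all 3 genes, so leaving it out lowers that group by the choice. Those calls are a description and do not bear on whether the mutants differ. The L4 collagen bli-1 is no numbered member, and it rose in crh-1(n3315), by 1.71 (standard error 0.55, edgeR adjusted p = 0.0213) on the log2 scale, against 1.30 (standard error 0.56, edgeR adjusted p = 0.127) in crh-1(syb385).

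Of the members tied to larval stages, the BMP pathway or longevity, col-13, a larval collagen, was called in both mutants, and the others were not, except under the alternatives named below. Its level was 1.47, 2.33, 5.34 and 1.12 CPM in wild type, 7.51, 9.79, 4.25 and 7.28 CPM in crh-1(syb385) and 11.3, 5.11, 5.12 and 5.42 CPM in crh-1(n3315), with log2 fold changes of 1.503 (standard error 0.43, edgeR adjusted p = 0.0261) and 1.41 (standard error 0.43, edgeR adjusted p = 0.0152). Wild type replicate 3 reached into the range of both mutants. Leaving out 1 library ended the first call in 6 of 12 fits and the second in 2, and fitting only the 2 genotypes compared ended the first. Its neighbour col-12 and the larval col-17 were not called. On the log2 scale col-12 stood at 0.87 in crh-1(syb385) and 0.15 in crh-1(n3315), and col-17 at 1.30 and 1.09. Without wild type replicate 3 col-17 was called in both, at 2.18 and 1.97 (edgeR adjusted p = 0.00296 and 0.00314). This gene had 9, 29, 76 and 23 counts in wild type, so it met the minimum of 10 counts in 4 libraries only with mutant libraries. Its values are thus a description. Reads of col-12 and col-13, which lie side by side on chromosome V, may have been shared. The dauer collagen col-2 had at most 11 counts in a library and was not tested.

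Of the 3 collagens known as targets of the BMP pathway that sets body size, none was called on all libraries with the chosen settings. The level of col-142 was 75.1, 92.1, 110.7 and 79.04 CPM in wild type, 133.8, 152.9, 101.1 and 153.6 CPM in crh-1(syb385) and 230.03, 170.5, 138.7 and 164.8 CPM in crh-1(n3315), so the last group lay apart from wild type. Its log2 fold changes of 0.60 (standard error 0.17, edgeR adjusted p = 0.0234) and 0.98 (standard error 0.17, edgeR adjusted p = 0.000351) were below 2-fold. The latter passed 2-fold without wild type replicate 3 (1.10), crh-1(n3315) replicate 3 (1.075) or crh-1(n3315) replicate 4 (1.01), and with the length trend removed (1.15, edgeR adjusted p = 2.02e-05). For col-141 they were 0.92 and 0.71. Those of col-41, at 2.02 CPM or less in every library, were 0.07 and 0.87. Of the 4 collagens used in work on longevity, col-13 was called as above, and col-10, col-120 and col-144 were not. Against wild type they stood at 0.87, 1.28 and 0.80 on the log2 scale in crh-1(syb385), and at 0.28, -0.13 and 0.75 in crh-1(n3315). For col-120, wild type replicate 3 was at 8.88 CPM and the other wild-type libraries at 0.208 to 2.52 CPM, and without it the gene was called in crh-1(syb385), at a log2 fold change of 2.77 (edgeR adjusted p = 0.00217), and between the mutants, at -1.41 (0.0347). The fit of both mutants alone also called it between them (-1.43). Wild-type counts of col-120 were 10, 54, 163 and 5, so it too met the minimum only with mutant libraries. Its folds and p values are a description. Without wild type replicate 3 col-144 was called in both mutants (1.09 and 1.04), and col-10 was called in crh-1(syb385) without wild type replicate 2 (1.19).

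The member col-99 encodes a collagen anchored in membranes and is not a cuticle protein. Its level was 30.9, 31.3, 32.8 and 37.3 CPM in wild type, 24.2, 28.6, 29.4 and 31.8 CPM in crh-1(syb385) and 17.3, 19.1, 21.6 and 20.4 CPM in crh-1(n3315). The replicates lay close together, and the crh-1(n3315) libraries were below all others. For col-99 the log2 fold change was -0.22 (standard error 0.12, edgeR adjusted p = 0.252) in crh-1(syb385), -0.76 (standard error 0.12, edgeR adjusted p = 0.000217) in crh-1(n3315) and -0.54 (standard error 0.12, edgeR adjusted p = 0.00881) between the mutants, each under 2-fold.

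The rare members col-158, col-43 and col-110 were nearly silent in wild type. They met the minimum of 10 counts in 4 libraries only through mutant libraries, so a higher level in a mutant follows from the choice, and their folds and p values are given as a description. The level of col-158 (WBGene00000731, chromosome V, 11829582 to 11831222) was 0, 0.140, 0.381 and 0.748 CPM in wild type, 1.71, 3.28, 3.62 and 1.87 CPM in crh-1(syb385) and 1.94, 1.58, 1.91 and 2.71 CPM in crh-1(n3315), from 0 to 18 counts per wild-type library and 31 to 69 per mutant library. Its log2 fold changes were 2.99 (standard error 0.61, edgeR adjusted p = 0.00364) and 2.63 (standard error 0.60, edgeR adjusted p = 0.00280). No group overlapped wild type. The level of col-43 was 0.0490, 0.326, 0.0545 and 0.665 CPM in wild type, 1.56, 2.04, 1.47 and 1.82 CPM in crh-1(syb385) and 1.56, 0.664, 0.838 and 1.02 CPM in crh-1(n3315), with log2 fold changes of 2.57 (standard error 0.60, edgeR adjusted p = 0.00860) and 1.83 (standard error 0.60, edgeR adjusted p = 0.0228). Its libraries of crh-1(n3315) touched the wild-type range, and the call there was lost without crh-1(n3315) replicate 1 (edgeR adjusted p = 0.0766) and in the fit of only the 2 genotypes compared. The level of col-110 was 0, 0, 0.163 and 0.332 CPM in wild type, 1.16, 1.13, 1.10 and 2.64 CPM in crh-1(syb385) and 0.969, 0.409, 0.931 and 0.817 CPM in crh-1(n3315), with log2 fold changes of 3.502 (standard error 0.76, edgeR adjusted p = 0.00550) and 2.56 (standard error 0.76, edgeR adjusted p = 0.0136). Both col-158 and col-110 share exon bases with a gene on the opposite strand, nphp-4 and nspg-10, so their values are uncertain.

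A smaller set of members fell, and in abundance and pattern it was mixed. The level of col-95 (WBGene00000670, chromosome III, 11703979 to 11705085) was 296.3, 540.4, 800.00 and 445.6 CPM in wild type, 131.9, 106.4, 222.5 and 155.7 CPM in crh-1(syb385) and 90.8, 87.5, 173.2 and 210.1 CPM in crh-1(n3315). All mutant libraries were below all wild-type libraries, although the wild-type libraries kept the order of the rising genes, with replicate 3 highest and replicate 1 lowest. For col-95 the log2 fold change was -1.76 (standard error 0.32, edgeR adjusted p = 0.00193) in crh-1(syb385) and -1.89 (standard error 0.32, edgeR adjusted p = 0.000334) in crh-1(n3315). Its neighbour col-96, on the opposite strand, was not called in either mutant (log2 fold changes of 0.32 and 0.74). The rare col-89 was at 3.33, 2.192, 2.72 and 2.20 CPM in wild type, 1.01, 0.905, 0.367 and 1.29 CPM in crh-1(syb385) and 1.35, 0.817, 1.26 and 1.43 CPM in crh-1(n3315), with log2 fold changes of -1.54 (standard error 0.38, edgeR adjusted p = 0.0114) and -1.10 (standard error 0.37, edgeR adjusted p = 0.0241). Its call in crh-1(n3315) was lost without wild type replicate 1 (-0.97) or crh-1(n3315) replicate 2 (-0.95), and with the length trend removed (-0.91).

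Falls of several-fold were also called for col-165 and col-74. They lie outside the rule for genes described singly, since their libraries overlapped, and were added after their values were seen. The level of col-165 (WBGene00000738, chromosome X, 4353618 to 4354811) was 56.9, 32.5, 4.79 and 19.8 CPM in wild type, 5.55, 6.11, 8.76 and 4.65 CPM in crh-1(syb385) and 2.65, 3.47, 9.07 and 5.06 CPM in crh-1(n3315). The level of col-74 (WBGene00000650, chromosome II, 5830869 to 5832014) was 45.3, 29.4, 3.595 and 17.5 CPM in wild type, 3.18, 4.13, 8.49 and 5.08 CPM in crh-1(syb385) and 2.11, 3.63, 7.35 and 3.27 CPM in crh-1(n3315). In both genes wild type replicate 1 was the highest and replicate 3 the lowest wild-type library, and replicate 3 was in the range of the mutants. The log2 fold changes of col-165 were -2.188 (standard error 0.53, edgeR adjusted p = 0.0112) and -2.49 (standard error 0.54, edgeR adjusted p = 0.00185), and those of col-74 were -2.20 (standard error 0.56, edgeR adjusted p = 0.0137) and -2.55 (standard error 0.56, edgeR adjusted p = 0.00215). The summed level of 11 molting genes was likewise highest in wild type replicate 1 and lowest in replicate 3, at 1689.6, 1127, 671 and 1237 CPM, and its part in these falls was not tested. The call of col-74 in crh-1(syb385) was lost without crh-1(syb385) replicate 1 (edgeR adjusted p = 0.0526).

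Few members were called between the mutants. Against crh-1(syb385), no member was upregulated in crh-1(n3315) and 3 were downregulated, 0% and 2.63% of the members beside 1.49% and 2.39% of all tested genes. In this fit the share of falls was thus near that of all tested genes. When only both mutants were fitted, 13 members fell, 11.4% beside 3.1% of all tested genes. By DESeq2 none was upregulated either. At an unadjusted p under 0.05 in edgeR, 1 member was higher and 21 were lower. A share of all tested genes is not given for that limit. The libraries of the mutants did not overlap for 3 members that were higher and 10 that were lower, 2.63% and 8.77% of the members beside 19.2% and 14.3% of all tested genes. The 3 falls were those of col-121, col-76 and col-150. The level of col-121 (WBGene00000695, chromosome IV, 9394934 to 9396218) was 50.5, 36.1, 43.2 and 45.1 CPM in wild type, 19.6, 25.5, 26.7 and 24.9 CPM in crh-1(syb385) and 6.65, 6.74, 10.2 and 8.94 CPM in crh-1(n3315). The groups formed 3 steps without overlap. The log2 fold change between the mutants was -1.57 (standard error 0.17, edgeR adjusted p = 4.85e-05), that of crh-1(n3315) against wild type -2.43 (standard error 0.17, edgeR adjusted p = 1.52e-07), and that of crh-1(syb385) against wild type -0.85 (standard error 0.16, edgeR adjusted p = 0.00201), under 2-fold.

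The other differences between the mutants were smaller. The level of col-76 (WBGene00000652, chromosome II, 8204341 to 8207573) was 70.6, 42.2, 34.2 and 48.2 CPM in wild type, 29.7, 36.05, 35.9 and 33.01 CPM in crh-1(syb385) and 13.7, 15.3, 19.9 and 16.4 CPM in crh-1(n3315). The last group lay below both others, which overlapped. The log2 fold change of col-76 was -1.04 (standard error 0.19, edgeR adjusted p = 0.00275) between the mutants and -1.58 (standard error 0.19, edgeR adjusted p = 1.86e-05) against wild type. Without crh-1(n3315) replicate 1 the former was under 2-fold (-0.96). The level of col-150 was 3.04, 6.16, 5.01 and 3.45 CPM in wild type, 9.83, 7.75, 4.77 and 7.95 CPM in crh-1(syb385) and 4.63, 2.502, 2.75 and 2.45 CPM in crh-1(n3315), so it was lower in crh-1(n3315) than in crh-1(syb385), with wild type overlapping both. Between the mutants col-150 differed by -1.29 (standard error 0.30, edgeR adjusted p = 0.00909) on the log2 scale. Falls called in crh-1(n3315) against wild type included the rare genes col-131, at 1.57, 1.45, 0.763 and 0.748 CPM in wild type and 0.126, 0.409, 0.326 and 0.0511 CPM in crh-1(n3315), and col-174, at 1.86, 2.01, 1.74 and 1.91 CPM and 0.0842, 0.460, 0.651 and 0.920 CPM. Their log2 fold changes were -2.29 (standard error 0.65, edgeR adjusted p = 0.0100) and -1.84 (standard error 0.51, edgeR adjusted p = 0.00864), and -0.999 and -0.69 in crh-1(syb385), where neither was called. For col-131 the wild-type libraries had 32, 31, 14 and 18 counts and the crh-1(n3315) libraries 3, 8, 7 and 1. That gene met the minimum of 10 counts in 4 libraries only with wild-type libraries. Its lower level in crh-1(n3315) thus follows in part from the choice, and its folds and p values are a description.

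By abundance, the calls lay mostly among the abundant genes and, in crh-1(syb385), also among the middle ones. Of the 38 abundant members, at 14.4 to 2699.8 RPKM, crh-1(syb385) showed 20 rises and 1 fall, and crh-1(n3315) 14 rises and 3 falls. The median log2 fold changes were 1.02 and 0.85. Of the 38 middle members, at 2.90 to 14.1 RPKM, 13 rose and 2 fell in crh-1(syb385), at a median of 1.26. In crh-1(n3315) the counts in this class were 2 and 3, with a median of 0.46. Of all tested genes, whatever their level, 2.24% rose and 4.48% fell in crh-1(syb385), and 4.17% rose and 11.2% fell in crh-1(n3315). The middle class of crh-1(n3315) lay near those shares. Of the 38 rare members, at 0.247 to 2.79 RPKM, crh-1(syb385) showed 4 rises and 2 falls, and crh-1(n3315) 3 rises and 4 falls, with medians of 0.19 and 0.07. The median standard error of the log2 fold change was 0.23 in the abundant class, 0.47 in the middle and 0.59 in the rare class of crh-1(syb385). In crh-1(n3315) these values were the same, at 0.23, 0.47 and 0.59. A 2-fold change of a rare or middle member was thus often not detectable at this depth and spread in either mutant.

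The middle members leaned one way between the mutants, which was not tested over the class, and 30 of the 38 shared crh-1(n3315) replicate 4 as the lowest library of that group. All 38 middle members had a lower fitted level in crh-1(n3315) than in crh-1(syb385), with a median log2 fold change of -0.75, whereas 27 of the 38 abundant members were lower, with a median of -0.19, and 25 of the 38 rare ones, with a median of -0.34. Only col-150 was called in the middle class. Over all 114 members the median was -0.38, beside -0.02 over all tested genes. The per-library medians of log2 CPM of the middle class were 3.32, 3.06, 2.54 and 3.12 for the crh-1(syb385) libraries and 3.04, 2.17, 2.17 and 1.41 in crh-1(n3315), so crh-1(n3315) replicate 1 lay among the crh-1(syb385) libraries. In wild type they were 1.06, 2.47, 2.60 and 0.95. Without crh-1(n3315) replicate 1, 8 members were downregulated between the mutants (7.02%, beside 1.88% of all tested genes). Without wild type replicate 3 there were 7 (6.14%, beside 2.84%), and without both libraries 25 (21.9%, beside 2.89%). The crh-1(n3315) library left out was the highest of its group for 83 members, so more falls without it follow from the choice.

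The members were spread over all 6 chromosomes, with 30 on IV, 26 on V, 20 on X, 16 on II, 12 on III and 10 on I. All are annotated as protein coding, and 98 of them have 1 annotated transcript. Their median exonic length was 1015.5 nt, against 1300 nt over all tested genes. There were 19 pairs of members that are direct neighbours among the annotated genes, with 32 members in them. In some of these both genes rose in both mutants, as in col-92 to col-94 and in col-159 and col-160, although col-92 and col-160 lost the call in crh-1(syb385) when single libraries were left out (col-160 down to 0.92). In others a call of 1 gene was not shared by its neighbour, as in col-95 and col-96 or col-149 and col-150. Exons of 12 members overlap those of another tested gene, in 10 cases on the opposite strand, and the counting is not stated to use strand, so these 12 are uncertain. Among the abundant members this concerns col-124 with 83 shared bases of qns-1 and col-179 with 16 of C34F6.11.

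Of the other cuticle collagens some rose like the col genes and some fell, and none of the listed enzymes that process collagen was called. Of 20 tested collagens named for body shape, 6 rose and none fell in crh-1(syb385), and 5 rose and 7 fell in crh-1(n3315). Of all tested genes, 2.24% rose and 4.48% fell in the first mutant, and 4.17% and 11.2% in the second. The median log2 fold changes of the 20 genes were 1.30 and 0.60, beside 0.88 and 0.58 over the col members. In crh-1(syb385) the 7 genes that fell in crh-1(n3315) were lower by less than 2-fold, each with an edgeR adjusted p under 0.05. They were dpy-2, dpy-3, dpy-7, dpy-10, dpy-14, dpy-17 and sqt-3. The dpy-7 gene, whose product forms the furrows around the body, was at 58.98 ± 6.50 CPM (SD, n = 4) in wild type, 35.1 ± 2.89 CPM in crh-1(syb385) and 10.1 ± 2.22 CPM in crh-1(n3315), steps like those of col-121. Its log2 fold changes were -0.75 (standard error 0.14, edgeR adjusted p = 0.00264) and -2.55 (standard error 0.15, edgeR adjusted p = 3.56e-08). Of 11 enzymes and partners of collagen processing, such as the prolyl hydroxylase dpy-18, the subtilisin-like protease bli-4 and the peroxidase mlt-7, none was called in any comparison. Under the 2-fold limit, mlt-7 stood at 0.98 (standard error 0.18, edgeR adjusted p = 0.00232) on the log2 scale in crh-1(syb385), and the tetraspanin tsp-15 at -0.78 (standard error 0.17, edgeR adjusted p = 0.00176) in crh-1(n3315). None of the 3 basement membrane collagens emb-9, let-2 and cle-1 was called.

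Few regulators of cuticle gene timing passed both limits of a call. Of 9 tested, none rose and 1 fell in crh-1(syb385), and 2 rose and 1 fell in crh-1(n3315). At any fold, 1 was higher and 2 were lower in crh-1(syb385) at an edgeR adjusted p under 0.05. In crh-1(n3315) 3 were higher and 6 lower, with a median log2 fold change of -0.61 over the list. Of all tested genes, 7.42% and 8.88% were so in the first comparison, and 20.3% and 21.7% in the second. The zinc finger gene lin-29, which drives the larva to adult switch and col-19, was at 2.94 ± 1.04 CPM in wild type, 5.58 ± 0.342 CPM in crh-1(syb385) and 6.37 ± 0.673 CPM in crh-1(n3315). Its log2 fold changes were 0.93 (standard error 0.25, edgeR adjusted p = 0.0208) and 1.12 (standard error 0.25, edgeR adjusted p = 0.00251). Its cofactor mab-10 was at 0.56 and 1.29 on the log2 scale (edgeR adjusted p = 0.155 and 0.000942). The epidermal factor grh-1 fell in both, with log2 fold changes of -1.13 (standard error 0.29, edgeR adjusted p = 0.0147) and -1.48 (standard error 0.29, edgeR adjusted p = 0.000946).

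Markers of molting and of several other tissues also differed between the genotypes, whereas the summed levels of neuron markers overlapped. The summed level of 11 molting genes was 671 to 1689.6 CPM in wild type, 613 to 734 CPM in crh-1(syb385) and 319 to 555 CPM in crh-1(n3315), with 3 and 7 of the 11 downregulated and none upregulated. The 6 vitellogenins summed to 22073 to 42040.4 CPM, 50593 to 60439.8 CPM and 56151 to 71528 CPM, with 3 and 2 of them upregulated. The 4 oocyte genes summed to 988 to 1465 CPM, 1773 to 2058 CPM and 2319 to 2622 CPM, with 0 and 2 upregulated. The 3 muscle genes summed to 643 to 1769 CPM, 1478 to 2172 CPM and 2537 to 3304 CPM, with unc-54 upregulated in crh-1(n3315) (1.19 on the log2 scale). Their median log2 fold change was -0.20 in crh-1(syb385) and -0.39 in crh-1(n3315), where 1 was lower at an edgeR adjusted p under 0.05. The 3 neuron genes summed to 167 to 179 CPM, 164 to 174 CPM and 162 to 182 CPM, and none was called. The 3 intestine genes, vit-2 among them, had median log2 fold changes of 0.02 and -0.37, and none was called. The 3 germline genes summed to 736 to 1212 CPM, 1237 to 1435 CPM and 1525 to 1703 CPM, and none was called. At any fold, 1 of them was higher in crh-1(syb385) and 3 in crh-1(n3315) at an edgeR adjusted p under 0.05. The 5 epidermal markers, which define the tissue that makes cuticle, summed to 177 to 279.7 CPM, 174 to 192 CPM and 155 to 177 CPM, with none of them called in crh-1(syb385) and dpy-7 and che-14 downregulated in crh-1(n3315). The part of these lists in the change of the col genes was not tested.

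**Figure D5:**
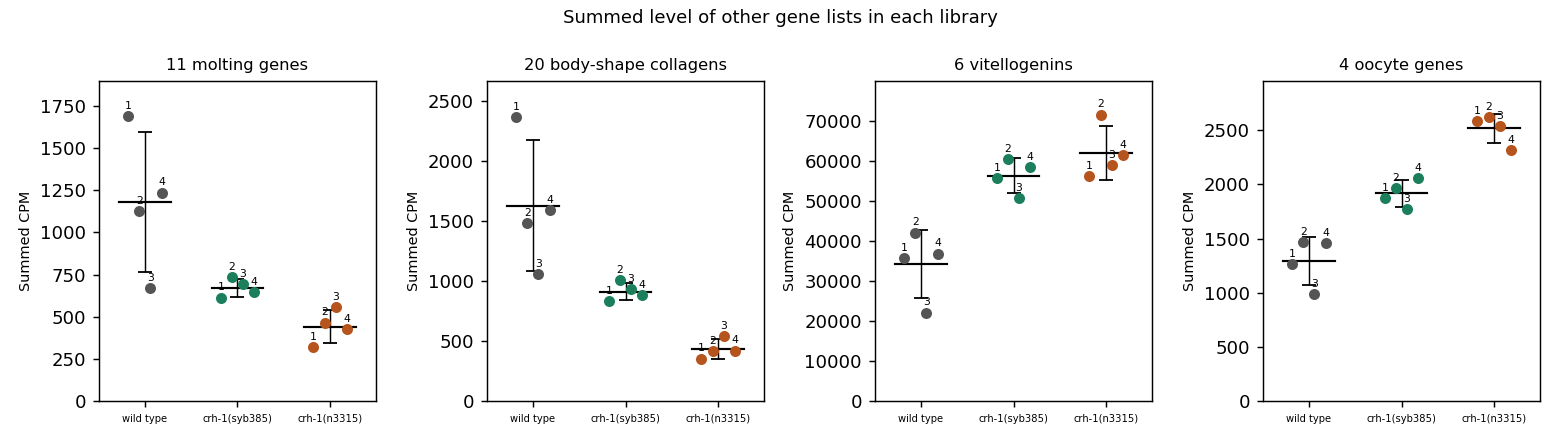
Summed TMM-normalized CPM of 11 molting genes, 20 body-shape collagens, 6 vitellogenins and 4 oocyte genes in each library, with replicate numbers, the mean (line) and SD (bar) of 4 libraries on axes that start at 0. Molting genes and body-shape collagens are lowest in crh-1(n3315), where their libraries lie below all others, and vitellogenins and oocyte genes are higher in the mutants than in wild type, with wild type replicate 3 the lowest library of each of the 4 panels in its group.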

How the data were processed

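RNA of whole day-1 adult worms was sequenced in 12 libraries, 4 for each of 3 genotypes taken from the labels. The deposited table holds gene counts that the authors made from reads aligned to WBcel235 and counted over exons. The submitters' processing notes name bcl2fastq 2.19, STAR 2.7.5a, featureCounts 1.5.0 and DESeq2 1.26.0. Strand setting, treatment of multimapping reads and annotation release are not given in the sources used here. Positions and exonic lengths came from the deposited table, symbols from WormBase names (43693 of 46748 identifiers matched), and neighbours and transcripts from the reference annotation.

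Genes kept by filterByExpr (minimum count 10, minimum total 15) were fitted in edgeR 4.0.16 (R 4.3.3) on all 12 libraries, with TMM scaling and genotype as the only term, and tested by quasi-likelihood. The method was tested on simulated data with the same spread for all genes and genotypes. In the real libraries wild type spread more than the mutants, a case that the simulation did not cover. CPM and RPKM use TMM library sizes. DESeq2 1.42.0, other filters and scalings, a replicate block, length correction, other fold limits and left-out libraries were alternatives. The study's methods call the replicates of each genotype independent biological ones, and the labels number them.

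Genes described singly were the 5 most abundant members, for each comparison the 4 largest called rises and falls without overlap of libraries and with at least 1 CPM in the higher group, the stage, BMP and longevity lists, and col-99. Lists came from background knowledge and are not complete, and col-6 and ram-4 were not analysed here. Members and lists were chosen with earlier results of these data known.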

Additional observations from a re-analysis of the deposited data

Results flagged for a closer look

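Of 105 groups of 4 libraries examined for single genes, 5 held 1 library far from the other 3, which is about the 1 in 20 that chance gives. For col-13, crh-1(n3315) replicate 1 was at 11.3 CPM and the others at 5.11 to 5.42 CPM. For col-150, the same library was at 4.63 CPM and the others at 2.45 to 2.75 CPM, and for col-41 it was at 2.02 CPM against 0.140 to 0.460 CPM. For the L4 collagen col-49, wild type replicate 3 was at 2.72 CPM and the others at 0.187 to 0.588 CPM. For col-110, crh-1(syb385) replicate 4 was at 2.64 CPM and the others at 1.10 to 1.16 CPM.

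The effect of the mutants against wild type differed between crh-1(n3315) and crh-1(syb385) for 3 members, by edgeR's test of the difference between the mutants. All were falls, 2.63% of the members and so near the 2.39% of all tested genes. The log2 fold change of crh-1(n3315) against crh-1(syb385) was -1.57 for col-121, -1.29 for col-150 and -1.04 for col-76. The difference of col-121 and that of col-150 were called in each of the 12 fits that left out 1 library.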

How the results depend on the processing

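Over 20 alternative fits, 0 values of called members and no median over the members changed sign. The counts of col genes moved most with the libraries used and the fold limit. Leaving out 1 library gave 18 to 51 rises and 3 to 5 falls in crh-1(syb385), 15 to 40 rises and 7 to 11 falls in crh-1(n3315), and 0 rises and 3 to 8 falls between the mutants. Of all tested genes, these fits called 1.74 to 3.52% and 2.96 to 6.08%, 3.62 to 4.53% and 9.83 to 11.5%, and 0.972 to 1.80% and 1.52 to 2.84%. The medians over the members then lay at 0.81 to 1.06, 0.21 to 0.82 and -0.61 to -0.31 on the log2 scale. Falls between the mutants were 25 without wild type replicate 3 and crh-1(n3315) replicate 1, 13 when only the 2 genotypes compared were fitted and 6 without a filter on low counts. These were 21.9, 11.4 and 5.26% of the members, beside 2.89, 3.1 and 1.5% of all tested genes. With the 2-fold limit inside the test, 3 rises and 0 falls were left in crh-1(syb385), 3 and 5 in crh-1(n3315), and 0 falls between the mutants. In this order these were 2.63, 0, 2.63, 4.39 and 0% of the members, beside 0.234, 0.600, 0.889, 3.42 and 0.117% of all tested genes. At 4-fold the counts were 8 and 3, 4 and 4, and 0, or 7.02, 2.63, 3.51, 3.51 and 0% of the members. Over all tested genes the shares were 0.538, 1.03, 0.944, 3.37 and 0.365%, so the falls in crh-1(n3315) were near that share. At any fold, 31 members rose in crh-1(n3315), 27.2% beside 20.3% of all tested genes. With the length trend removed 32 rose and 8 fell there, 28.1% and 7.02% beside 4.52% and 10.0%. DESeq2 gave 40 rises and 5 falls, 21 and 10, and 0 and 4. These were 35.1 and 4.39%, 18.4 and 8.77%, and 0 and 3.51% of the members. Of all tested genes it called 2.65 and 5.09%, 4.55 and 11.6%, and 1.61 and 2.86%. No scaling moved the median of all tested genes by over 0.1.

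Whether same-numbered libraries were paired is not stated. The correlation of deviations of same-numbered libraries ran from -0.08 to 0.12 and was over 0.1 in 2 of 12 pairs. Differently numbered libraries ran from -0.23 to 0.18, so the correlations do not decide it. With the replicate block, 33 members rose and 4 fell in crh-1(syb385), 18 rose and 10 fell in crh-1(n3315), and 0 rose and 4 fell between the mutants. These were 28.9 and 3.51%, 15.8 and 8.77%, and 0 and 3.51% of the members. Of all tested genes the block gave 2.18 and 3.74%, 4.29 and 10.5%, and 1.36 and 2.09%. The medians with the block were 0.97, 0.57 and -0.44.

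The median standard error of the log2 fold change, 0.59 in the rare and 0.47 in the middle class of crh-1(syb385), limits what could be called there. Whether the worms had been given FUdR, and their exact age in hours, is not known. The cause of the dependence on single libraries was not tested.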
